A study of Mus musculus with 18 samples.

Results

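The immediate early and Creb family factors described here are 9 transcription factor genes, *Fos*, *Fosb*, *Jun*, *Junb*, *Jund*, *Egr1*, *Atf3*, *Creb1* and *Crem*, out of 28252 genes with deposited TPM values (a level scaled for gene length and library size). They were found by gene symbol in the TPM values and by the same Ensembl identifier in the read counts. All 9 were found. The 9 genes were chosen by name, and *Jund* and *Crem* were chosen on their differences between cultured and non-cultured oocytes in these same libraries, so their culture values are given as a description with no test. The libraries were 18 RNA-seq libraries of mouse oocytes (strain C57Bl/6j x CBA/J), with 6 groups of 3. Primordial and primary follicle oocytes were cut by laser-capture microdissection (LCM) from sections of ovaries. These ovaries came from 14-day-old mice (*in vivo*), or were taken at 7 days of age and cultured for 7 days (*in vitro*). The culture medium held serum and follicle stimulating hormone (FSH). Metaphase II (MII) oocytes *in vivo* were collected fresh from adult mice. Ovulation was induced there by injected menopausal gonadotropin and then chorionic gonadotropin (hCG). MII oocytes *in vitro* came from follicles of such cultured ovaries that were grown in alginate for 12 more days. That medium also held serum and FSH, and hCG was added to release the oocytes. The LCM material was fixed, paraffin-embedded, amplified and captured with a probe-based kit, whereas MII oocytes were sequenced by Smart-seq II. Both kinds of library were made from pools of oocytes. A difference in oocyte stage and one in library preparation therefore cannot be told apart where MII libraries are set beside LCM libraries.

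Immediate early genes are transcribed within minutes of a growth factor, hormone or stress signal without new protein synthesis. The products of *Fos* and *Fosb* pair with those of *Jun*, *Junb* and *Jund* to form the AP-1 factor, *Egr1* encodes a zinc finger factor, and *Atf3* encodes a stress-induced relative of the Creb proteins. *Creb1* encodes the cAMP response element binding protein, which is activated by phosphorylation rather than mainly by its level, and *Crem* encodes both activators and the inducible repressor ICER. In the ovary these factors are best known from granulosa cells, where gonadotropins act through cAMP, while a grown oocyte is largely silent in transcription and holds stored mRNA.

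The 12 LCM libraries held 15149564 to 29205503 reads assigned to genes and the 6 MII libraries 7334817 to 9978830. A gene was counted as detected above 3 reads in a library, which is 0.103 to 0.198 CPM (reads scaled to library size) in LCM and 0.301 to 0.409 CPM in MII libraries and covers counting error only. The number of genes above that floor ran from 4842 to 11710 in LCM and from 13238 to 15488 in MII libraries. Of 12 oocyte markers, 10 to 12 were above the floor in each library. Summed oocyte markers were 324 to 1517 TPM in LCM and 11651 to 28632 TPM in MII libraries. In primary *in vitro* libraries they were 399 to 502 TPM, below the summed granulosa markers (1217 to 2962 TPM). These ranges overlapped in the other LCM groups. The part of other cells in the LCM values was not tested. Summed granulosa markers were 64.9 to 2962 TPM in LCM against 11.5 to 20.8 TPM in MII libraries, summed theca and stroma markers reached 28910 TPM in primary *in vivo* library 2, and summed red blood cell markers were 1157 to 7508 TPM in the primary *in vivo* libraries. In bulk libraries, fewer cells of a type and less RNA per cell cannot be told apart.

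RefSeq promoter windows (GRCm38.p6) were at hand for 7 of the 9 genes. The stretches from 140 bases before to 10 bases after the RefSeq start are shown for the 4 genes whose window holds TGACG, the core of the cAMP response element to which Creb and Atf proteins bind. Capitals mark TGACG or its complement CGTCA, the Egr element GCGNGGGCG and TATAAA, the letters of the TATA box. The motifs were searched on both strands, without overlap between the marked ones. *Fos* lies at chr12:85473750-85473899 (plus strand), *Fosb* at chr7:19310036-19310185 (minus), *Junb* at chr8:84978739-84978888 (minus) and *Atf3* at chr1:191183324-191183473 (minus).
Fos: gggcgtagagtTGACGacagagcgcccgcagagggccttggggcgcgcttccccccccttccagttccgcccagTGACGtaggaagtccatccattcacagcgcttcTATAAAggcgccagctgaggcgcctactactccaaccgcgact
Fosb: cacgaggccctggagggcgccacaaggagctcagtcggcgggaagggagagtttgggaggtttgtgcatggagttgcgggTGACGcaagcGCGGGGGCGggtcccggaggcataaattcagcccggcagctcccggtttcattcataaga
Junb: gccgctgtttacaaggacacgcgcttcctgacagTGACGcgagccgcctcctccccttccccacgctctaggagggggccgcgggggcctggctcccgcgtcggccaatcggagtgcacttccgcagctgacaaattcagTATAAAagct
Atf3: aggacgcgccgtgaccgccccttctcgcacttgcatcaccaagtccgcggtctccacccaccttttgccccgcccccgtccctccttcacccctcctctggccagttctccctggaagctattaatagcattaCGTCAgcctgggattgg

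In the whole windows of 300 bases around the start, TGACG was found in 4 of the 7 genes against 20.9% of 32544 RefSeq promoters. The full palindrome TGACGTCA, the AP-1 element TGANTCA and the CArG box were found in 0 of the 7, against 1.8%, 7.79% and 1.64% of all promoters. The Egr element was found in *Fosb* and *Creb1* (5.6% of all promoters) and TATAAA in *Fos* and *Junb* (13.6%). Counted from the RefSeq start, TATAAA begins at -33 in *Fos* and at 1 in *Junb*. That *Junb* start lies 30 bases upstream of the nearest GENCODE transcript start. The *Jund* window, which held none of these motifs, lies around a RefSeq start 1210 bases upstream of the only annotated GENCODE transcript start, while the other 6 starts lie within 30 bases of one, which for *Atf3* is not its most upstream start. Without *Jund*, TGACG was found in 4 of 6 genes. A match describes the letters in the window only. The 4 genes with TGACG had different patterns in the libraries, as the values that follow show: *Junb* and *Fosb* were found in all 6 MII libraries, *Fos* in 5 and *Atf3* in 1.

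*Egr1* and *Junb* had the highest levels of the set in MII oocytes, and neither was called between growth conditions. *Egr1* had 627, 935 and 588 reads in the MII *in vivo* libraries and 917, 982 and 690 in the *in vitro* libraries. All 6 values lay within a narrow range and the groups overlapped. The level of *Egr1* was 49.3 ± 17.8 TPM *in vivo* and 52.6 ± 8.33 TPM *in vitro* (SD, n = 3 each), with a log2 fold change of *in vitro* over *in vivo* of 0.16 (95% interval -0.59 to 0.90, edgeR adjusted p = 0.923). *Junb*, which encodes the Jun protein that often restrains AP-1 in growing cells, had 121, 155 and 242 reads *in vivo* and 99, 125 and 142 *in vitro*. The lowest value *in vivo* lay below the highest *in vitro*, so the groups overlapped. *Junb* stood at 22.8 ± 8.15 TPM *in vivo* and 14.8 ± 4.40 TPM *in vitro* (SD, n = 3 each), a log2 fold change of -0.56 (95% interval -1.58 to 0.45, adjusted p = 0.716). *Junb* shares 173 exonic bases with *Prdx2* on the opposite strand, a peroxiredoxin gene with 1377 to 3120 reads in the MII libraries, and whether counting used strand is not given in the sources used here, so *Junb* reads are uncertain.

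*Fosb* and *Fos* were low but present in MII oocytes. *Fosb* had 49, 60 and 61 reads *in vivo* and 56, 44 and 27 *in vitro*. The groups overlapped, at 2.77 ± 0.517 and 1.82 ± 0.429 TPM (SD, n = 3 each), with a log2 fold change of -0.50 (95% interval -1.93 to 0.94, adjusted p = 0.856). *Fos* had 53, 4 and 35 reads *in vivo* and 20, 14 and 0 *in vitro*. The *Fos* groups overlapped too, and the log2 fold change of -1.51 had an interval of -4.39 to 1.37 (adjusted p = 0.738). *Creb1* had 0, 12 and 22 reads *in vivo* and 18, 35 and 13 *in vitro*, and *Jun* had 0, 0 and 19 against 17, 8 and 0. Their groups overlapped and their intervals were wide, -2.03 to 3.78 for *Creb1* (log2 fold change 0.88) and -4.00 to 4.92 for *Jun* (0.46).

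*Jund* had 0 reads in all 3 MII *in vivo* libraries and 45, 8 and 16 reads in the *in vitro* libraries. The groups did not overlap, and against the floor of 3 reads per library *Jund* was at least 7.56-fold higher *in vitro*, a difference for which the gene was chosen. *Jund* shares 919 bases of its single exon with *Gm11175* on the opposite strand, which had 28 reads in the 18 libraries together. *Atf3* (5, 0 and 0 reads *in vivo*, 0 in each *in vitro* library) and *Crem* (2, 0 and 4 reads *in vivo*, 0, 3 and 0 *in vitro*) were at or near the floor in MII oocytes and were not tested there. Of the 7 genes that were not chosen on culture, 6 were tested in MII oocytes and 0 were called, where called means an adjusted p below 0.05 and at least a 2-fold change. At that rule 0.35% of the 17144 genes tested were called. The groups overlapped for all 7, while 16.2% of all genes had groups that did not overlap. Of the 11 oocyte markers tested in MII libraries, 1 was called, *Ddx4*, with a log2 fold change of 3.55 (edgeR adjusted p = 0.00206). It stood at 13.4 to 34.8 TPM *in vivo* and 217 to 368 TPM *in vitro*.

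**Figure D1:**
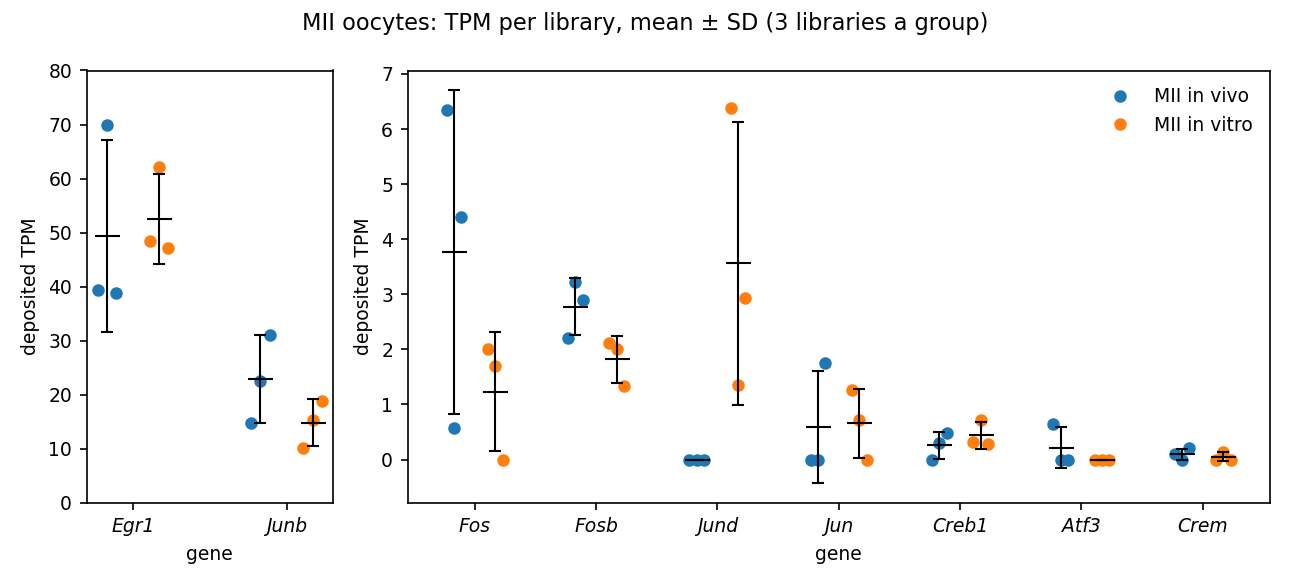
Deposited TPM (y axis, linear) of each gene in the MII libraries, *in vivo* in blue and *in vitro* in orange, with the mean and SD of 3 libraries a group in black. *Egr1* lies between 38.8 and 69.9 TPM and *Junb* between 10.2 and 31.1 TPM in all 6 libraries, and the other genes lie below 7 TPM.

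On the length-scaled TPM values the order in MII oocytes was *Egr1* (median of 6 libraries 47.8 TPM), *Junb* (17.2), *Fosb* (2.17), *Fos* (1.85), *Jund* (0.681), *Jun* (0.356), *Creb1* (0.301), *Crem* (0.0477) and *Atf3* (0). The ranges of *Egr1* (38.8 to 69.9 TPM), *Junb* (10.2 to 31.1) and *Fosb* (1.33 to 3.22) did not overlap each other. The ranges of *Fos* (0 to 6.34 TPM) and *Fosb* overlapped, and from *Fos* downward no neighbours differed beyond their spread. In LCM libraries the order by median was different, with *Jund* and *Egr1* both at 12 TPM, *Creb1* at 9.5, *Jun* at 2.47 and the other 5 genes below 0.1, but every gene had at least 2 of 12 libraries at 0 TPM and all ranges overlapped. The highest single LCM values were 801 TPM for *Jund*, 796 for *Crem*, 389 for *Jun*, 153 for *Creb1* and 117 for *Egr1*, and these lay in 4 different libraries.

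**Figure D2:**
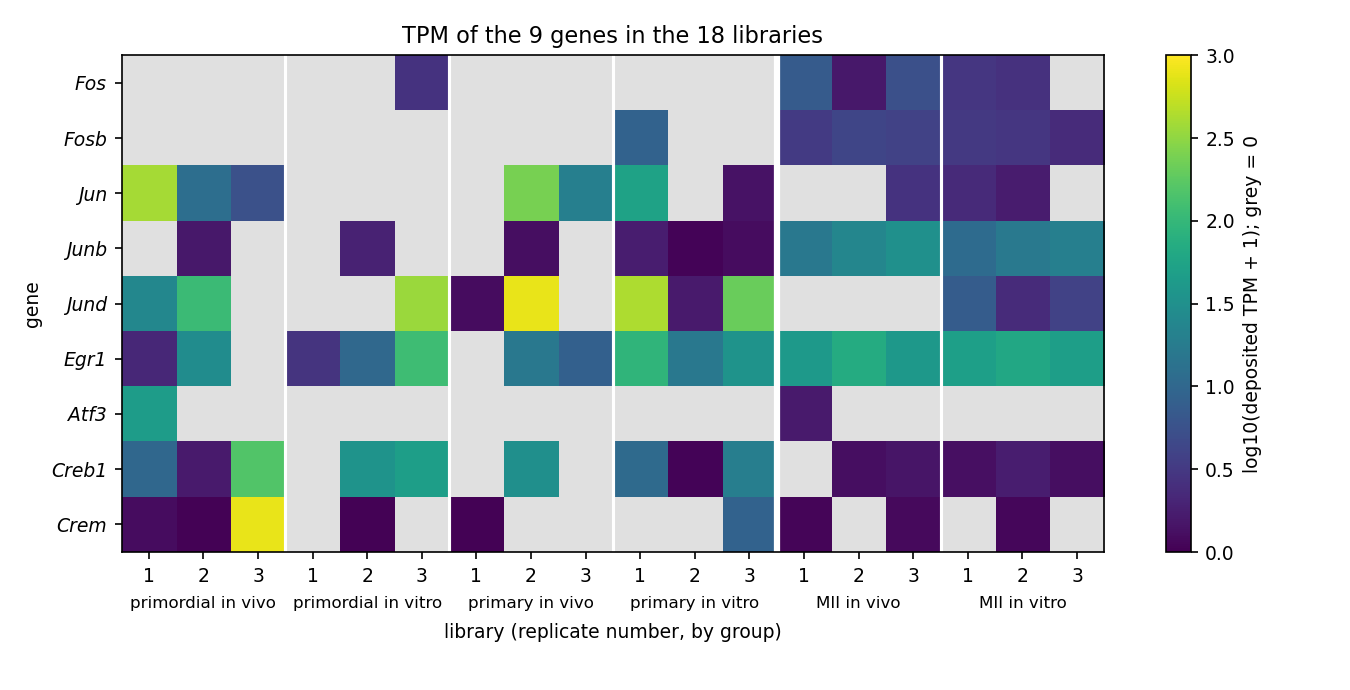
Colour gives log10(deposited TPM + 1) of the 9 genes (rows) in the 18 libraries (columns, by group and replicate number), with grey for a value of 0. The rows of *Egr1* and *Junb* are evenly coloured across the 6 MII libraries, whereas in the 12 LCM libraries high values stand beside grey cells within the same group.

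Each of the 9 genes was above the floor in at least 1 LCM and 1 MII library, and the levels are given side by side. *Junb* was above the floor in 5 of 12 LCM libraries with at most 0.919 TPM, so its lowest MII value of 10.2 TPM exceeded all 12. *Prdx2*, which overlaps it, also had fewer reads in LCM (0 to 359) than in MII libraries. The lowest *Egr1* value in MII libraries exceeded 10 of the 12 LCM libraries and that of *Fosb* exceeded 11. *Fos* was above the floor in 1 of 12 LCM and 5 of 6 MII libraries. In the other direction the highest MII value was 6.39 TPM for *Jund*, 1.76 for *Jun* and 0.723 for *Creb1*. The LCM medians of these genes were 12, 2.47 and 9.5 TPM, with LCM libraries at 0 for each. *Crem* reached at most 0.201 TPM in MII libraries. Its median was 0.0199 TPM in LCM and 0.0477 TPM in MII libraries, and it was above the floor in 3 of 12 LCM libraries. No test compared the sets, because stage and preparation cannot be told apart.

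Within LCM libraries most genes of the set were found in some libraries of a group and missing from others. Over all pairs of gene and library, 44 of 108 (40.7%) were above the floor, against 54.3% for all genes tested in LCM libraries, and in MII libraries 36 of 54 (66.7%) against 80.6%. Primary *in vivo* library 1, which also had the fewest genes above the floor (4842), held 0 of the 9 genes above it, and primordial *in vitro* library 1 (5703 genes) held 1. *Egr1* was found in 10 of 12 libraries, *Creb1* in 9, *Jun* and *Jund* in 7, *Junb* in 5, *Crem* in 3, and *Fos*, *Fosb* and *Atf3* in 1 each, against a median of 7 for all genes tested. The share of a gene's summed CPM that came from its highest library was 37.2% for *Junb*, 41.6% for *Egr1*, 44.4% for *Jund*, 55.1% for *Jun*, 57.4% for *Creb1*, 99.3% for *Crem* and 100% for *Fos*, *Fosb* and *Atf3*. The median share over all genes tested was 50.3%, so only the last 4 lay above the upper quartile of 73.9%.

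**Figure D3:**
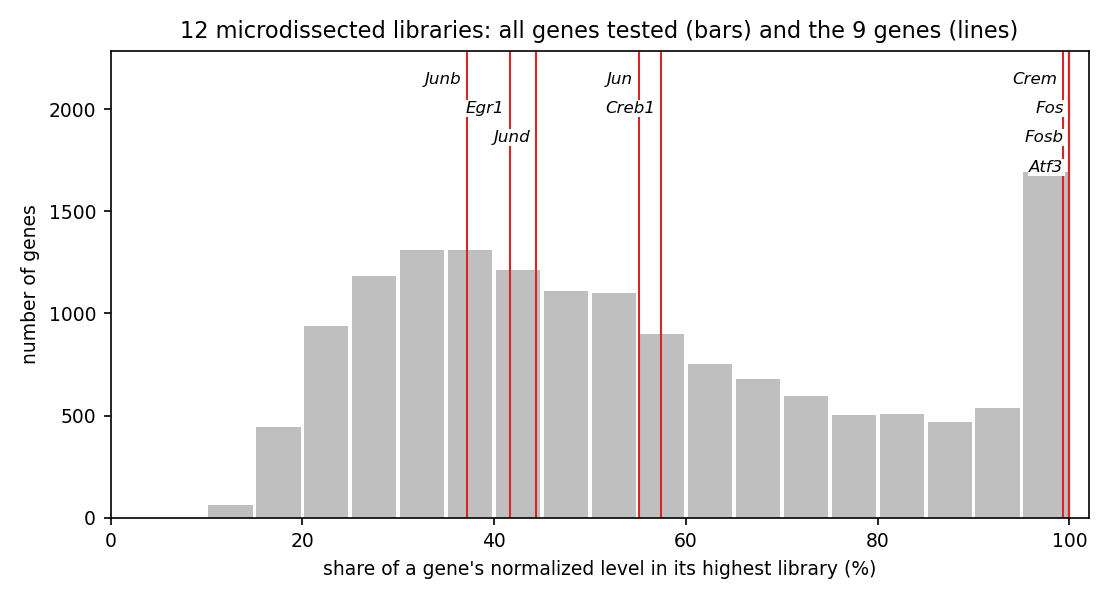
Share of each gene's normalized level found in its highest of the 12 LCM libraries (x axis, percent), with the number of genes tested per 5% bin as grey bars and the 9 genes as red lines. *Junb*, *Egr1*, *Jund*, *Jun* and *Creb1* lie between 37.2% and 57.4%, and *Crem*, *Fos*, *Fosb* and *Atf3* lie at 99.3% to 100%.

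*Jun* gave the widest separation by culture among the genes that were not chosen for it. It had 8537, 252 and 107 reads in the primordial *in vivo* libraries and 0 reads in each of the 3 primordial *in vitro* libraries. All *in vivo* libraries lay above all *in vitro* libraries, and *Jun* was at least 807-fold lower *in vitro* against the floor of 3 reads per library. Primordial *in vivo* library 1 held 96.1% of the summed CPM of its group and sets the size of that bound. The edgeR quasi-likelihood test gave a log2 fold change of -14.52 (95% interval -23.59 to -5.45) with an adjusted p of 0.359, so *Jun* was not called. Without primordial *in vivo* library 1 the log2 fold change was -10.43 (adjusted p = 0.583). DESeq2 with its defaults gave -13.72 with an adjusted p of 0.00073 and called it, in a comparison where that tool called 4.86% of all genes and edgeR 0.0326%. Groups did not overlap for *Jun* alone among the 7 genes, against 6.59% of all genes. Summed theca and stroma markers overlapped between these groups (398 to 1670 TPM *in vivo*, 195 to 2972 TPM *in vitro*). Their medians were 1581 TPM *in vivo* and 344 TPM *in vitro*, and their part in the difference was not tested.

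In primary follicles *Jun* had 0, 5674 and 308 reads *in vivo* and 1172, 0 and 10 *in vitro*. Both groups held a library at 0 and a library with at least 1172 reads, so they overlapped. The log2 fold change was -2.67 (95% interval -8.35 to 3.01, edgeR adjusted p = 0.894). It was 0.62 without primary *in vivo* library 2, which held 28910 TPM of theca and stroma markers, whose part was not tested. Pooled over both follicle stages it was -8.59 (95% interval -13.82 to -3.37, adjusted p = 0.188), and DESeq2 gave -8.28 with an adjusted p of 0.00523, where it called 3.56% of all genes and edgeR 0. The pooled value was -6.55 without primordial *in vivo* library 1, -6.95 without primary *in vivo* library 2 and -11.73 without primary *in vitro* library 1. The difference of the culture effects between stages was 11.85 on the log2 scale (95% interval 2.62 to 21.08, adjusted p = 0.292), and it was 7.76 without primordial *in vivo* library 1, 15.13 without primary *in vivo* library 2 and 5.50 without primary *in vitro* library 1. Between primordial and primary oocytes *in vitro*, with 0 reads in each primordial library, *Jun* was at least 81.5-fold higher in primary oocytes, with an edgeR adjusted p of 0.384 and a DESeq2 adjusted p of 0.0415, where DESeq2 called 2.67% of all genes. Primary *in vitro* library 1 held 99.2% of the summed CPM of its group, the groups overlapped at 0, and without it the edgeR log2 fold change was 4.86 in place of 11.21. *Jun* shares 689 bases of its single exon with the antisense gene *Junos*, which had 23 reads in all libraries together.

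**Figure D4:**
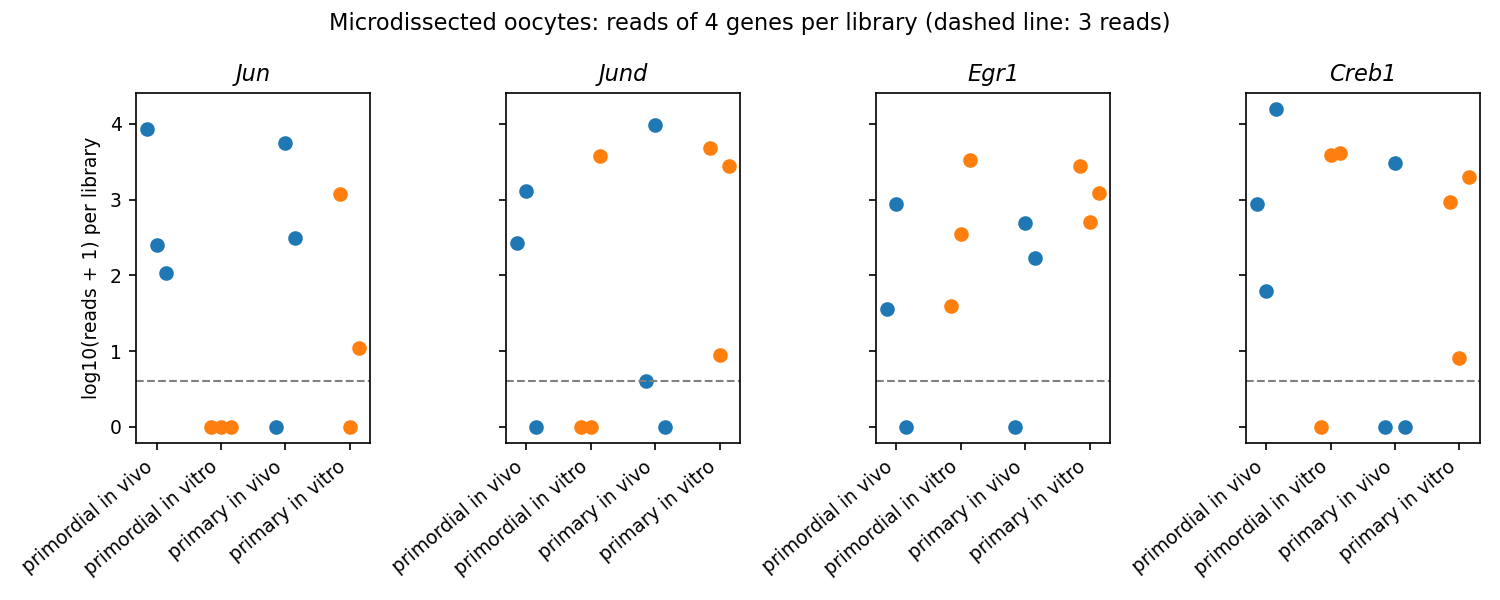
Reads of *Jun*, *Jund*, *Egr1* and *Creb1* in each LCM library, as log10(reads + 1) on the y axis, by group (*in vivo* blue, *in vitro* orange), with a dashed line at 3 reads. *Jun* is at 0 in the 3 primordial *in vitro* libraries, and each of the other 3 groups holds a library with at least 1172 *Jun* reads.

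*Egr1* was detected in all 6 *in vitro* LCM libraries and in 4 of 6 *in vivo* libraries. It was missing from primordial *in vivo* library 3 (6438 genes above the floor) and primary *in vivo* library 1 (4842 genes). These held the fewest genes of the *in vivo* LCM libraries. Primordial *in vitro* library 1, with 5703 genes, had 38 *Egr1* reads. It had 35, 888 and 0 reads in primordial *in vivo*, 38, 351 and 3386 in primordial *in vitro*, 0, 487 and 170 in primary *in vivo* and 2815, 509 and 1208 in primary *in vitro* libraries. The primordial groups overlapped, while the primary groups were only narrowly apart. Their lowest *in vitro* value was 22 CPM (15 TPM) and their highest *in vivo* value 19.5 CPM (14.9 TPM). *Egr1* was the only one of the 7 genes with separate groups at the primary stage, where 9.99% of all genes had them. The log2 fold change of *in vitro* over *in vivo* was 2.38 (95% interval -3.62 to 8.38, edgeR adjusted p = 0.847) in primordial and 2.39 (-3.61 to 8.39, adjusted p = 0.934) in primary oocytes, and without primordial *in vitro* library 3 the first was -0.54. Summed granulosa markers were also higher in primary *in vitro* (1217 to 2962 TPM) than in primary *in vivo* libraries (497 to 933 TPM). Their part in the *Egr1* values was not tested. Of the 12 granulosa markers, 9 were above the floor in all 3 primary *in vitro* libraries and 4 in all 3 primary *in vivo* libraries. For the 12 AP-1 partners these counts were 7 and 2. Genes above the floor numbered 11094, 8880 and 11710 in primary *in vitro* and 4842, 10283 and 7163 in primary *in vivo* libraries.

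*Creb1* had 862, 62 and 15551 reads in primordial *in vivo*, 0, 3926 and 4182 in primordial *in vitro*, 0, 3032 and 0 in primary *in vivo* and 937, 7 and 1996 in primary *in vitro* libraries. In each group the lowest library had at most 62 reads and the highest at least 1996, and the groups overlapped by culture and by stage. The log2 fold change by culture was -1.29 (95% interval -5.94 to 3.36, adjusted p = 0.948) in primordial oocytes and -0.39 (-4.98 to 4.19, adjusted p = 1) in primary oocytes. Without primordial *in vivo* library 3 the first became 2.56, and without primary *in vivo* library 2 the second became 12.47. *Junb* had at most 18 reads in any LCM library, in primordial *in vitro* library 2, and its log2 fold change by culture pooled over both stages was 1.21 (95% interval -2.74 to 5.15, adjusted p = 1).

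*Crem* was set by a single library. It had 11, 2 and 34600 reads in the primordial *in vivo* libraries, 0, 2 and 0 in primordial *in vitro*, 2, 0 and 0 in primary *in vivo* and 0, 0 and 363 in primary *in vitro* libraries. The reads of primordial *in vivo* library 3 far exceeded those of all others, and 9 of the 12 libraries had at most 2 reads. The same library held the highest *Creb1* count and 6438 genes above the floor. Its summed granulosa markers (64.9 TPM) and its summed oocyte markers (324 TPM) were both the lowest of the LCM libraries. Which cells gave the *Crem* reads was not tested. Against the floor *Crem* was at least 3827-fold higher *in vivo* than *in vitro* in primordial oocytes, and at least 24.5-fold higher *in vitro* than *in vivo* in primary oocytes, the differences for which it was chosen. The second rests on primary *in vitro* library 3 alone. *Crem* shares 472 exonic bases with *Gm6225* on the opposite strand, which had 0 reads.

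*Jund*, chosen likewise, had 269, 1301 and 0 reads in primordial *in vivo*, 0, 0 and 3823 in primordial *in vitro*, 3, 9750 and 0 in primary *in vivo* and 4876, 8 and 2759 in primary *in vitro* libraries. In each group at least 1 library had 1301 or more reads and at least 1 had 8 or fewer, and the *in vivo* and *in vitro* groups overlapped at both stages. The library with 9750 reads was primary *in vivo* library 2, which had the highest summed theca and stroma markers (28910 TPM). In the primary *in vitro* libraries, with 4876, 8 and 2759 reads, these markers stood at 999, 1731 and 684 TPM. Their part in the *Jund* values was not tested. The ratio of mean CPM was 3.09-fold higher *in vitro* at the primordial stage and 1.6-fold higher *in vivo* at the primary stage.

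*Fos*, *Fosb* and *Atf3* were each seen in a single LCM library. *Fos* had 26 reads in primordial *in vitro* library 3, *Fosb* 340 reads in primary *in vitro* library 1 and *Atf3* 665 reads in primordial *in vivo* library 1, and all other LCM libraries had 0. These 3 libraries differed from each other, and the last was also the library with 8537 *Jun* reads. For *Fosb* by culture at the primary stage the adjusted p was 0.44, and for *Atf3* by culture at the primordial stage it was 0.359 by edgeR. With 1 library above the floor, these values describe that library.

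Of the 7 genes that were not chosen on culture, 0 were called by edgeR in the 7 LCM comparisons. *Jund* and *Crem* are left out here also for stage, since those comparisons use the libraries on which they were chosen. At an unadjusted p below 0.05 the genes were *Jun* and *Atf3* for culture at the primordial stage, where 11.7% of all genes passed, *Fosb* for culture at the primary stage (9.66%), *Jun* for the pooled culture effect (11.6%) and *Jun* for the difference between stages (11.5%). For stage *in vivo* it was *Atf3* (11.2%), for stage *in vitro* they were *Fos*, *Fosb* and *Jun* (10.9%), and for the pooled stage effect *Jun* (12.4%). The share of all 15317 genes that edgeR called was 0.104% for the difference between stages, 0.0522% for stage *in vivo*, and 0% for culture at the primary stage, pooled culture, stage *in vitro* and pooled stage. DESeq2 called *Jun* in 3 of the 7 comparisons and none of the other 6 genes. The spread between LCM replicates was large (biological coefficient of variation 2.02, against 0.726 in MII libraries), so the absence of a call does not show that levels were alike.

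**Figure D5:**
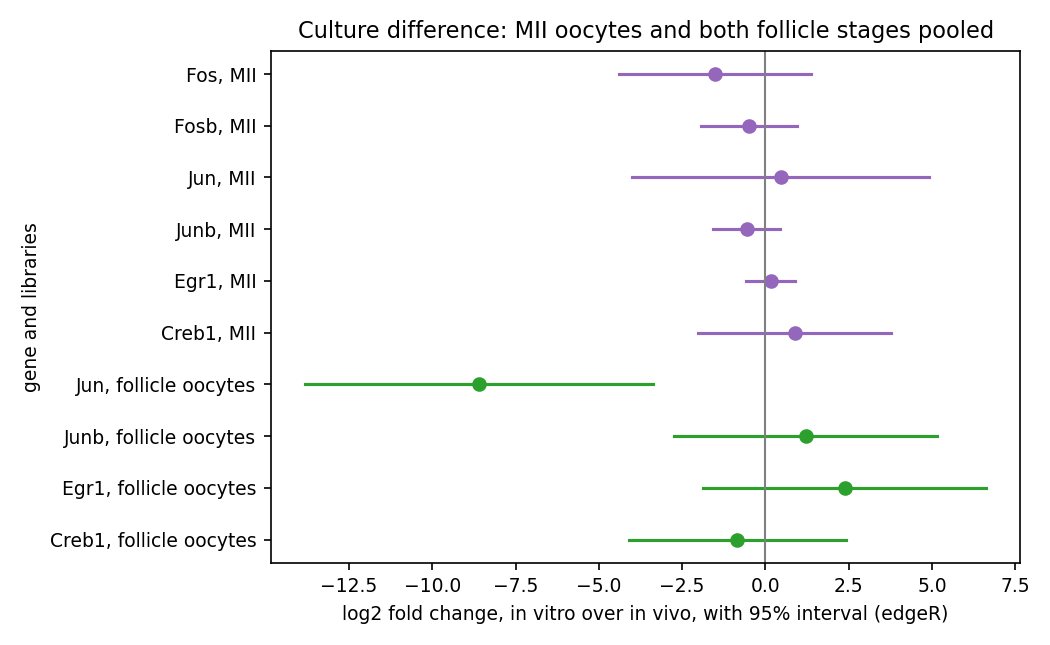
Log2 fold change of *in vitro* over *in vivo* (x axis) with its 95% interval from edgeR, for the 6 genes tested in MII libraries (purple) and for the 4 genes fitted over both follicle stages in LCM libraries (green). The interval of *Egr1* in MII oocytes runs from -0.59 to 0.90 and that of *Jun* in follicle oocytes from -13.82 to -3.37, whose adjusted p was 0.188.

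By follicle stage, *Crem* and *Jund* are described without a test. *Crem* was at least 3937-fold higher in primordial than in primary oocytes *in vivo*, a ratio set by primordial *in vivo* library 3. *Jund* had a mean of 131 ± 226 CPM in primary against 19.9 ± 25.2 CPM in primordial oocytes *in vivo* (SD, n = 3 each), and its primary mean comes from library 2. *Atf3* had the smallest adjusted p of the 7 other genes *in vivo*, 0.38 by edgeR, and rests on primordial *in vivo* library 1. Groups overlapped for the 7 genes in both stage comparisons, whereas they did not for 6.39% of all genes *in vivo* and 11.2% *in vitro*.

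Over the 12 LCM libraries, the genes with patterns most like those of the 4 genes found in at least 6 libraries were ranked by Spearman correlation of log2 CPM among 8822 genes, as a description. Nearest to *Jun* was *Gpalpp1* (rho 0.93), to *Jund* *Ptpn14* (0.954), to *Egr1* *Sbds* (0.945) and to *Creb1* *Cask* (0.951). The points share library depth and the number of genes found. Among the 4 genes themselves rho ran from -0.0145 (*Egr1* and *Jun*) to 0.704 (*Egr1* and *Jund*).

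The genes around the family were measured from lists of 6 kinds. In LCM libraries 9 of 12 matched AP-1 partners were tested, 14 of 15 Creb and Atf relatives, 5 of 5 Creb coactivators, 26 of 26 upstream kinases and SRF, 13 of 14 inhibitors and repressors and 25 of 29 other immediate early genes. In MII libraries these were 10, 13, 5, 25, 12 and 20. In the first 5 lists 0 genes were called by edgeR in the 8 comparisons, where 0% to 0.35% of all genes were called. Of the 25 other immediate early genes tested, 1 was called, *Homer1*, a synaptic scaffold gene with an activity-induced short form, in the difference between stages, where 0.104% of all genes were called. The median log2 fold change by culture of these 6 lists ran from -0.12 to 0.85 in MII oocytes, where that of all genes was 0.04, and from -0.41 to 0.69 over both follicle stages, where that of all genes was 0.15. The medians spread more widely in single comparisons. That of the other immediate early genes was -1.63 for culture at the primordial stage (all genes 0.00), 0.12 for culture at the primary stage (0.44) and 3.92 for stage *in vitro* (0.44), and that of the coactivators was -1.19 for culture at the primary stage. In MII oocytes the coactivator *Crebbp* stood at 65.7 to 123 TPM, *Atf1* at 56.9 to 131 TPM and *Creb3l4* at 340 to 413 TPM, all far above *Creb1* at 0 to 0.723 TPM. In LCM libraries *Crebbp* was the most abundant coactivator at 455 to 2313 TPM and was above the floor in all 12. *Rgs2*, an immediate early regulator of G protein signaling, was the highest of its list in MII oocytes at 633 to 1386 TPM, and *Dusp1*, a phosphatase that switches off MAP kinases, stood at 133 to 550 TPM there. *Mapk3*, which encodes the kinase ERK1, was at 158 to 389 TPM in MII libraries and 16.5 to 1249 TPM in LCM libraries. *Nab2*, a corepressor of Egr proteins, was at 50.8 to 65.9 TPM in MII *in vivo* and 16.7 to 24.8 TPM in MII *in vitro* libraries, groups that did not overlap, as for 16.2% of all genes, and it was not called.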

How the data were processed

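Condition and replicate number of the 18 libraries were taken from the sample labels. The labels do not say that replicates came from separate animals, so p-values measure the spread between these libraries, which may be technical. The authors trimmed reads with Trim Galore (v0.4.1), mapped them to mm10 with TopHat2, and deposited raw read counts per gene from featureCounts. The authors also deposited TPM values, scaled by gene length and library size. Counting by strand is not given in the sources used here. Coordinates and overlaps are from GENCODE on GRCm38.

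Counts were tested with edgeR 4.0.16 (R 4.3.3, quasi-likelihood, robust, TMM normalization, at least 10 reads in total, Benjamini-Hochberg adjustment over all genes), in a model of 12 LCM libraries (15317 genes) and a model of 6 MII libraries (17144 genes). Called genes had an adjusted p below 0.05 and at least a 2-fold change. DESeq2 1.42.0 and limma 3.58.1 on log2(TPM + 1) and log2(TPM + 0.1) were alternatives. A fold against a group at or under the floor used 3 reads per library. The scripts were tested on simulated counts: fold changes were recovered, but with the spread of the LCM libraries none of the changed genes was called, and with the spread of the MII libraries false calls exceeded the nominal rate when each gene had its own dispersion.

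All 9 genes were named in every library. From each list, genes called and the 3 with the highest mean TPM per model could be named, and for the genes found in at least 6 LCM libraries, those most correlated with them. *Prdx2* was named for its overlap. *Batf*, *Egr4* and *Ddit3* could not be matched. The genes and lists were chosen with earlier results of these data known.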

Additional observations from a re-analysis of the deposited data

Results flagged for a closer look

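*Homer1* had a culture effect that differed between the follicle stages by a log2 difference of 25.89 (edgeR adjusted p = 0.0447). It had 9476, 2007 and 7 reads in primordial *in vivo*, 0 in each primordial *in vitro*, 1, 0 and 0 in primary *in vivo* and 2258, 1455 and 440 in primary *in vitro* libraries. Against the floor of 3 reads it was at least 1019-fold higher *in vivo* in primordial and at least 327-fold higher *in vitro* in primary oocytes. The size of 25.89 rests on groups at or under the floor and is no bound. The call was kept by DESeq2 (adjusted p = 4.75e-09), with RLE size factors (0.0485), with library size alone (0.0446) and over 10 LCM libraries (0.0258), an alternative added after seeing the data. It was lost with no low-count filter (adjusted p = 0.079), with filterByExpr (0.204), with the replicate block (0.355), with all 18 libraries in a single fit (0.133), with limma on TPM (0.722 and 0.724) and when any of 11 of the 12 LCM libraries was left out.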

How the results depend on the processing

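The number of genes of the set called was 0 in each comparison under the alternatives that gave a value, except that DESeq2 called 1, *Jun*, for primordial culture, pooled culture and stage *in vitro*, and 10 LCM libraries, without the 2 with the fewest genes, called 1, *Crem*, for stage *in vivo*, a gene chosen on these libraries, as was *Jund*. The cause was not tested. Of 1231 alternative values, 84 log2 fold changes turned sign, and the main value of each was not called. With limma on log2(TPM + 1), they were *Creb1* 0.94 (primary culture), *Creb1* 0.37 (pooled culture), *Jund* -0.48 and *Egr1* 0.37 (stage *in vivo*), *Junb* 0.10 and *Egr1* 1.30 (stage *in vitro*) and *Junb* 0.01 and *Egr1* 0.84 (pooled stage). With limma on log2(TPM + 0.1), they were *Creb1* 2.21 (primary culture), *Creb1* 0.65 (pooled culture), *Jund* -1.06 and *Egr1* 0.56 (stage *in vivo*), *Junb* 0.76 and *Egr1* 1.49 (stage *in vitro*) and *Junb* 0.26 and *Egr1* 1.03 (pooled stage). With the replicate number as a block, they were *Creb1* 2.73 (primary culture), *Creb1* 0.25 (pooled culture), *Jun* 2.28 (stage *in vivo*), *Junb* 3.70, *Egr1* 1.77, *Creb1* 0.91 and *Crem* -1.43 (stage *in vitro*) and *Junb* 1.64 and *Egr1* 0.63 (pooled stage). Over 10 LCM libraries, an alternative added after seeing the data, they were *Junb* -0.64, *Egr1* -1.21 and *Creb1* -0.30 (difference between stages), *Egr1* 0.36 (stage *in vivo*) and *Jund* -0.22 (stage *in vitro*). For the difference between stages *Egr1* was -0.32 with DESeq2 and with RLE size factors, -0.06 with no filter and -0.08 with filterByExpr. With library size alone, they were *Junb* 0.28 and *Egr1* 0.13 (stage *in vitro*). With each library left out in turn, log2 fold changes that turned sign were as follows. For primordial culture they ranged from -4.43 to 5.39 for *Junb*, -0.54 to 6.30 for *Egr1* and -1.97 to 2.56 for *Creb1*. For primary culture they ranged from -8.98 to 0.62 for *Jun* and -1.40 to 12.47 for *Creb1*. For pooled culture they ranged from -1.49 to 3.42 for *Junb* and -1.35 to 5.59 for *Creb1*. For the difference between stages they ranged from -3.94 to 5.87 for *Junb*, -3.91 to 2.90 for *Egr1* and -2.95 to 13.76 for *Creb1*. For stage *in vivo* they ranged from -3.93 to 3.45 for *Jun*, -4.44 to 3.76 for *Junb*, -7.75 to 4.50 for *Jund*, -1.32 to 3.66 for *Egr1* and -15.67 to 1.05 for *Creb1*. For stage *in vitro* they ranged from -1.13 to 5.20 for *Junb*, -0.52 to 13.88 for *Jund*, -1.01 to 2.68 for *Egr1* and -2.55 to 9.42 for *Crem*. For pooled stage they ranged from -2.31 to 2.27 for *Junb*, -3.67 to 8.31 for *Jund*, -0.78 to 1.71 for *Egr1* and -8.16 to 2.10 for *Crem*. For MII culture they ranged from -0.76 to 6.05 for *Jun* and -0.02 to 0.44 for *Egr1*. Same-numbered libraries did not deviate together (correlations -0.0662 to 0.0897 in LCM and -0.0241 to 0.0159 in MII libraries). With the large spread between LCM replicates, such correlations cannot show whether the numbers pair the samples. The block changed no call of the 9 genes. Genes whose groups were all at 0 in a pooled comparison gave no fold change. With 3 libraries a group, and many LCM libraries at 0, intervals are wide, and levels near 3 reads are not resolved. A left-out library leaves 2 in its group.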
